A study of Drosophila melanogaster with 30 samples.

Results

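The genes buttonhead (btd) and Sp1 lie next to each other on the X chromosome of *Drosophila melanogaster*, with the small gene CG42657 between them and nej. These 3 genes were taken by name from the 14284 genes of the deposited tables, and all 3 were found in every table. Their chromatin was measured in cells isolated from the brains of wandering third-instar (L3) larvae by ChIP-seq of nuclease-digested chromatin. Each of 4 groups gave 2 libraries for H3K4me3, the trimethylation of lysine 4 on histone H3 found at active gene starts, and 2 for H3K27me3, the trimethylation of lysine 27 that Polycomb repressive complex PRC2 deposits at silent genes. The groups were neurons, neuroblasts with RNAi against both brat and numb (labelled brat RNAi numb RNAi), neuroblasts with RNAi against brat alone (brat RNAi), and type I neuroblasts. Both RNAi groups are labelled tumor neuroblasts. The labels used here name no driver or line for the RNAi, no strain, no sex, no number of larvae and no control RNAi in type I neuroblasts or neurons. The 2 genes that flank the locus, nej on one side and CG1354 on the other, were measured in the same libraries for comparison.

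Both btd and Sp1 encode transcription factors of the Sp family, which bind GC-rich DNA through zinc fingers. In the fly embryo btd is a head gap gene, and the 2 genes act together in the primordia of legs and antennae, upstream of the homeobox gene Distal-less (Dll). In the larval brain btd is known from type II neuroblasts, the neural stem cells that lack the proneural factor Asense and divide through intermediate progenitors, whereas type I neuroblasts express Asense. Brat is a translational repressor whose loss lets type II lineages produce supernumerary neuroblasts, while Numb restrains Notch signalling in one daughter of a dividing cell. H3K27me3 covers whole silent loci as broad domains, whereas H3K4me3 sits in a narrow peak at the start of active genes. The deposited H3K27me3 counts cover the whole gene model and the H3K4me3 counts a window of 501 bases at the outer start of each gene.

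In the dm3 build the CG42657 model runs from X:9582222 to 9583328, btd from X:9588221 to 9591606 and Sp1 from X:9623681 to 9650237, all on the plus strand. From the first base of CG42657 to the last base of Sp1 the locus measures 68016 bp. The starts of btd and Sp1 are 35460 bp apart. The gap of 32074 bp between them holds 1 other gene of the tables, CR43498 (X:9621955 to 9622521, minus strand), which ends 1159 bp before Sp1. A later annotation lists CG42657 as a long noncoding RNA gene, lncRNA:CR42657. The flanking gene nej (X:9559693 to 9581099, minus strand) encodes the histone acetyltransferase CBP, and its start lies 1122 bp from CG42657. CG1354 (X:9672779 to 9675951, plus strand) begins 22541 bp beyond Sp1. No window of the 3 genes or of the flanking genes overlapped that of another gene, so their reads were not shared. The tables give Sp1 4 transcripts, of which only the outermost start was measured for H3K4me3.

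The H3K4me3 libraries held 2461222 to 12258131 counted reads and the H3K27me3 libraries 15281722 to 25009648. All 3 genes passed the filter on low counts for both marks. The marker genes matched the labels in part. In neurons over type I neuroblasts the H3K4me3 log2 fold change was positive at 5 of 5 neuron markers, with 0 called. It was positive at 0 of 5 neuroblast markers, with 3 called lower. Of all 14185 genes 8439 were positive and 64 were called. In brat RNAi over type I neuroblasts 0 of 5 neuroblast markers, ase among them, were positive (median -0.58). Of all genes 6992 were positive there (median -0.02). H3K4me3 at dpn, a neuroblast transcription factor, was 25.2 and 21.3 counts per M reads (CPM) in neurons, against 246 and 119 CPM in type I neuroblasts, a decrease that passed the test (edgeR adjusted p = 0.021). At ase, which encodes Asense, it was 8.41 and 34.1 CPM in brat RNAi neuroblasts, against 156 and 180 CPM in type I neuroblasts, also past the test (edgeR quasi-likelihood test, adjusted p = 0.040). Without type I neuroblasts replicate 1 no gene was called in that comparison (0, against 14 with all libraries). In brat RNAi numb RNAi neuroblasts ase had 103 and 171 CPM. Among genes of other cell types, H3K4me3 over the 8 libraries was 5.37 to 14.8 CPM at repo, 3.75 to 19.97 CPM at gcm and 4.70 to 18.96 CPM at moody, all of glia, 2.22 to 9.002 CPM at Hml and 3.45 to 11.7 CPM at srp, both of hemocytes, and 3.04 to 22.5 CPM at the muscle gene Mhc. It was 54.0 to 143 CPM at Mef2, a muscle factor that some neurons also express. Neither mark measures RNA, so the knockdown of brat and numb was not checked. At the start of brat H3K4me3 was 150 to 401 CPM over the 8 libraries, and at numb 10.3 to 74.0 CPM. No difference at either gene passed the test for either mark, with a smallest adjusted p of 0.15.

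H3K27me3 was dense over the gene models of the locus in 3 of the 4 groups and near or below the level of the flanking genes in brat RNAi neuroblasts. The counted models of CG42657, btd, CR43498 and Sp1 cover 31617 of the 68016 bp, and the sequence between them was not measured. Values are given as CPM scaled by the trimmed mean of M values (TMM). At btd the mark measured 229 and 41.7 CPM in neurons, 72.3 and 113 CPM in brat RNAi numb RNAi neuroblasts, 8.31 and 7.71 CPM in brat RNAi neuroblasts and 155 and 83.5 CPM in type I neuroblasts. The 2 brat RNAi libraries were the lowest of the 8, and the other 6 spanned a range whose ends were both neuron libraries. Less of the mark in every cell and fewer cells with the mark cannot be told apart in such bulk samples. The counts behind the brat RNAi values were 118 and 142 reads, against 1235 to 3071 reads in the other libraries.

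Sp1, the longest gene of the locus, followed the same order. It had 1968 and 422 CPM of H3K27me3 in neurons, 661 and 826 CPM in brat RNAi numb RNAi neuroblasts, 62.2 and 92.8 CPM in brat RNAi neuroblasts and 1138 and 687 CPM in type I neuroblasts. CG42657 had 68.04 and 17.4 CPM in neurons, 23.1 and 23.9 CPM in brat RNAi numb RNAi neuroblasts, 2.11 and 3.37 CPM in brat RNAi neuroblasts and 45.9 and 20.6 CPM in type I neuroblasts. At all 3 genes the brat RNAi libraries lay below every other library, and the ranges of the other 3 groups overlapped one another. Their order by mean, neurons above type I neuroblasts above brat RNAi numb RNAi neuroblasts, therefore did not exceed the spread between libraries. The share of all genes with both brat RNAi libraries below every other library was not counted. As means ± SD over 2 libraries, btd had 135 ± 132 CPM in neurons, 92.8 ± 29.1 in brat RNAi numb RNAi neuroblasts, 8.01 ± 0.42 in brat RNAi neuroblasts and 119 ± 50.7 in type I neuroblasts.

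**Figure D1:**
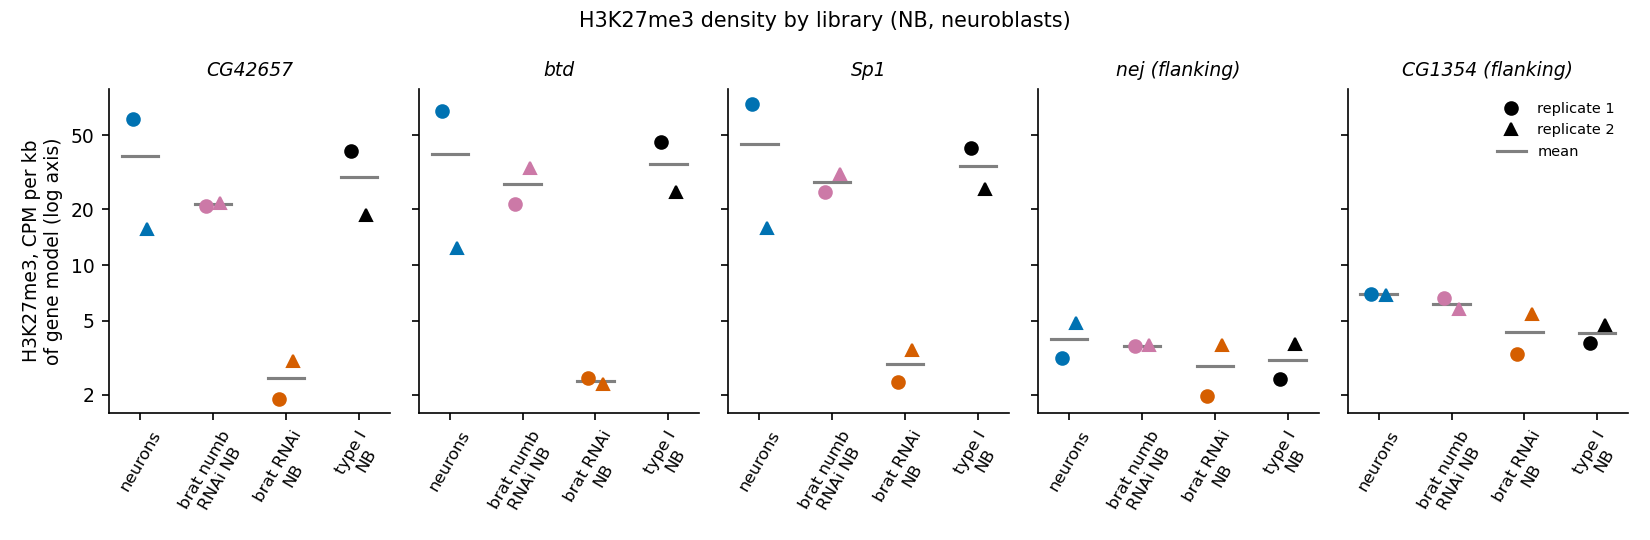
H3K27me3 in CPM per kb of gene model (log axis) at CG42657, btd, Sp1 and the flanking genes nej and CG1354, by group, with replicate 1 as circles, replicate 2 as triangles and the mean as a grey line. At the 3 genes of the locus both brat RNAi libraries lie below all others, at 1.91 to 3.49 CPM per kb, whereas at nej and CG1354 the groups lie close together.

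Divided by gene length, the 3 genes carried much the same amount of the mark in each group. In brat RNAi neuroblasts the densities were 2.45 and 2.28 CPM per kb at btd, 2.34 and 3.49 at Sp1 and 1.91 and 3.04 at CG42657. In type I neuroblasts they were 45.9 and 24.7 CPM per kb at btd, 42.8 and 25.9 at Sp1 and 41.4 and 18.6 at CG42657. The flanking genes had low densities in every library, from 1.98 to 4.89 CPM per kb at nej and from 3.33 to 7.02 CPM per kb at CG1354. In brat RNAi neuroblasts the locus thus had a density near or below that of its neighbours, and in the other groups the high densities were those of the gene models between the flanking genes.

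This can be expressed within a library, as the density of a gene over the mean density of nej and CG1354, which needs no scaling between libraries. For btd this ratio was 13.3 and 2.09 in neurons, 4.15 and 7.08 in brat RNAi numb RNAi neuroblasts, 0.924 and 0.498 in brat RNAi neuroblasts and 14.7 and 5.80 in type I neuroblasts. For Sp1 it was 14.6 and 2.70 in neurons, 4.84 and 6.57 in brat RNAi numb RNAi neuroblasts, 0.883 and 0.764 in brat RNAi neuroblasts and 13.7 and 6.09 in type I neuroblasts. Only the brat RNAi libraries had ratios below 1 at btd, Sp1 or CG42657.

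Ranks within each library gave the same picture. By H3K27me3 density btd stood at percentiles 97.3 and 91.9 of the 14284 genes in neurons, 96.5 and 97.6 in brat RNAi numb RNAi neuroblasts, 6.07 and 1.29 in brat RNAi neuroblasts and 98.1 and 96.98 in type I neuroblasts. Sp1 stood at percentiles 4.95 and 4.96 in brat RNAi neuroblasts and at 96.0 or above in the other libraries. CG42657 stood at 2.17 and 3.07 in brat RNAi neuroblasts and at 94.1 or above elsewhere. Of all 14284 genes, 4 were below percentile 10 in both brat RNAi libraries and above percentile 90 in the 6 others, and these were CG42657, btd, CR43498 and Sp1, the 4 consecutive genes between nej and CG1354. These limits were chosen after the values of the locus were known, so the count is a description. No gene was low in this way in any other single group, and none was high in 1 group and low in the 6 other libraries.

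CR43498, the noncoding RNA gene between btd and Sp1, had 71.0 and 13.995 CPM per kb of H3K27me3 in neurons, 20.01 and 28.4 in brat RNAi numb RNAi neuroblasts, 2.36 and 2.11 in brat RNAi neuroblasts and 49.0 and 30.6 in type I neuroblasts. Of the 13 genes within 100 kb of the locus, the 7 upstream of CG42657 had between 1.89 and 13.4 CPM per kb in all libraries. CG32698, which lies beyond CG1354, had 9.59 to 27.1 CPM per kb, a range that overlapped that of the upstream genes. Its density was 17.8 and 27.1 CPM per kb in neurons and 10.7 and 9.59 in brat RNAi numb RNAi neuroblasts. In brat RNAi neuroblasts it was 21.4 and 17.8 CPM per kb, and in type I neuroblasts 12.9 and 10.4. Here the brat RNAi libraries lay above those of type I neuroblasts, unlike at btd and Sp1. This difference did not pass the test (log2 fold change 0.75 ± 0.23 SE, edgeR adjusted p = 0.68). The share of all genes separate in this upward direction is not given here.

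**Figure D2:**
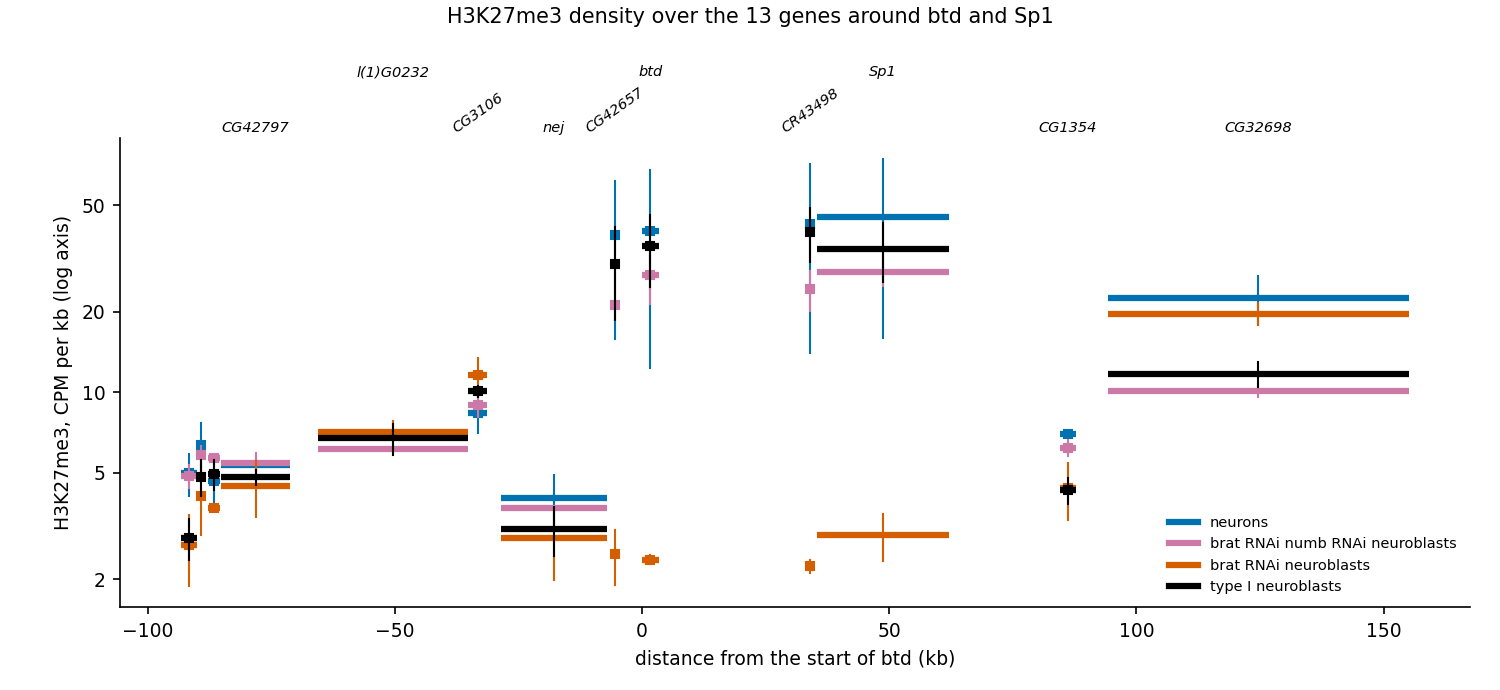
H3K27me3 density (CPM per kb, log axis) over the 13 genes within 100 kb of the locus, against distance from the start of btd in kb. Thick bars span each gene at the mean of 2 libraries, squares mark short genes and thin lines join both libraries. From CG42657 to Sp1 the brat RNAi bars lie near 2 to 3 CPM per kb and the other groups above 20.

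Under the fit of all 8 libraries none of these differences passed the threshold of 0.05 on the adjusted p, and no gene of the genome did for H3K27me3. In brat RNAi against type I neuroblasts the log2 fold change was -3.90 ± 0.78 (SE) at btd (edgeR quasi-likelihood test, adjusted p = 0.62). It was -3.56 ± 0.70 at Sp1 (edgeR adjusted p = 0.62) and -3.59 ± 0.68 at CG42657 (edgeR adjusted p = 0.50). In size these are a 14.9-fold, an 11.8-fold and a 12.02-fold lower level. Ordered from the lowest log2 fold change of the 14182 genes tested, btd was number 2, CG42657 number 4 and Sp1 number 5. Number 1 was CR43498, at -4.15 ± 0.75, and number 3 was Cyp6a17 on chromosome 2R, a cytochrome P450 gene named after its value was seen. The median over all genes was -0.01. The log2 fold change was -0.11 ± 0.37 at nej and 0.03 ± 0.32 at CG1354.

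With 0 calls the share of genes called was 0%, and 842 genes had an unadjusted p under 0.05. The calls depended on the test and on whether the neuron libraries, the most divergent pair at btd, Sp1 and CG42657, were in the edgeR fit. The SE at btd was 0.78 with all 8 libraries and 0.39 with the 6 neuroblast libraries, a fit added after the values were seen. With those 6 libraries the adjusted p was 0.0065 at btd, 0.0044 at Sp1 and 0.024 at CG42657, and 0.0917% of the genes tested were called. When the 2 groups were fitted alone it was 2.6e-07, 2.0e-10 and 2.3e-05, with 0.169% of genes called. DESeq2 on all 8 libraries gave 2.0e-06, 2.9e-06 and 5.4e-06, with 0.287% of genes called. Over 15 alternatives the adjusted p ranged from 2.6e-07 to 1.0 at btd, from 2.0e-10 to 1.0 at Sp1 and from 5.4e-06 to 1.0 at CG42657, while the log2 fold change stayed between -4.28 and -2.93. Both brat RNAi libraries lay below both type I libraries at all 3 genes, as did 14.5% of all genes tested.

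**Figure D3:**
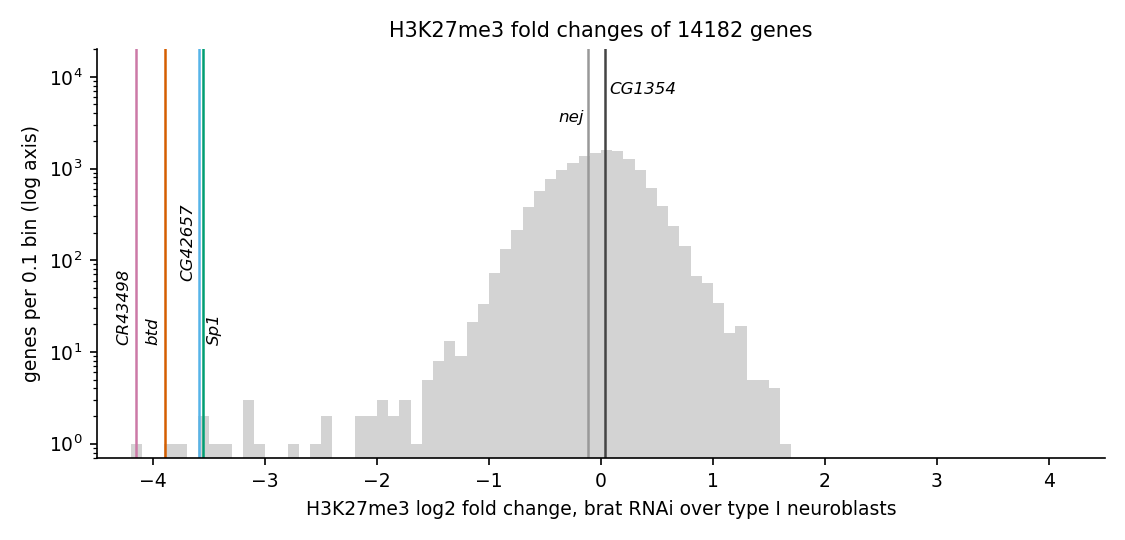
Distribution of H3K27me3 log2 fold changes in brat RNAi over type I neuroblasts over 14182 genes, in bins of 0.1 with a log count axis, with vertical lines at 6 named genes. CR43498, btd, CG42657 and Sp1 lie at -4.15 to -3.56, in the far lower tail, and nej and CG1354 lie near 0.

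The width of the H3K27me3 signal in each library was also compared. The density at the 97.5th percentile of genes was 8.52 and 2.33 times the median density in neurons, 3.03 and 3.82 times in brat RNAi numb RNAi neuroblasts, 5.30 and 3.21 times in brat RNAi neuroblasts and 4.72 and 3.18 times in type I neuroblasts. The brat RNAi libraries thus spanned as wide a range as those of type I neuroblasts, while the neuron libraries were the widest and the narrowest of the 8. The neuron library with the wider range was also the one with more H3K27me3 at the locus, and the part of this in the result was not tested. For H3K4me3 the same measure varied more between libraries. It was 40.6 and 11.2 in neurons and 7.34 and 18.9 in brat RNAi numb RNAi neuroblasts. In brat RNAi neuroblasts it was 24.8 and 9.36, and in type I neuroblasts 38.0 and 18.5. Its part in the H3K4me3 values given below was not tested.

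A further comparison set brat RNAi numb RNAi against brat RNAi neuroblasts. H3K27me3 was higher in the brat RNAi numb RNAi libraries, with log2 fold changes of 3.53 ± 0.77 at btd, 3.26 ± 0.69 at Sp1 and 3.09 ± 0.67 at CG42657, and an edgeR adjusted p of 0.20 at all 3. From the highest log2 fold change of the 14182 genes tested, btd was number 1, Sp1 number 3 and CG42657 number 4. At nej the log2 fold change was 0.37 ± 0.37 and at CG1354 0.50 ± 0.31. No gene was called, a share of 0%, and 2660 genes had an unadjusted p under 0.05. With the 6 neuroblast libraries the edgeR adjusted p was 0.016 at btd and 0.0083 at Sp1, with 0.0776% of genes called. When the brat RNAi numb RNAi and brat RNAi groups were fitted alone, none of the 3 genes passed. DESeq2 gave 1.1e-05 at Sp1, with 0.644% of genes called and no adjusted p for btd and CG42657. CG42657 passed under none of the 14 alternatives that gave an adjusted p, the smallest being 0.058. The libraries did not overlap at any of the 3 genes, but they also did not overlap, in the same direction, at 30.7% of all genes.

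In neurons against brat RNAi neuroblasts the log2 fold changes of H3K27me3 were 4.08 ± 0.79 at btd, 3.95 ± 0.71 at Sp1 and 3.95 ± 0.69 at CG42657, with an edgeR adjusted p of 0.14 at each. From the highest value they were numbers 8, 9 and 10. No gene was called (0%, with 3250 at an unadjusted p under 0.05), DESeq2 called 1.95% of genes, and by DESeq2 the adjusted p was 9.4e-08 at btd, 2.3e-08 at Sp1 and 6.7e-08 at CG42657. When the neuron and brat RNAi groups were fitted alone, none of the 3 genes passed. The neuron libraries both lay above both brat RNAi libraries at all 3 genes, as they did at 25.7% of all genes. The size of the difference depended on the neuron library, since without neurons replicate 2 the log2 fold change at btd was 4.83 and without neurons replicate 1 it was 2.43.

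The other 3 comparisons of H3K27me3 gave small values. In brat RNAi numb RNAi against type I neuroblasts the log2 fold changes were -0.36 ± 0.69 at btd, -0.30 ± 0.63 at Sp1 and -0.50 ± 0.60 at CG42657. In neurons against type I neuroblasts they were 0.18 ± 0.69, 0.39 ± 0.63 and 0.36 ± 0.59 at the same genes. In neurons against brat RNAi numb RNAi neuroblasts they were 0.54 ± 0.69, 0.68 ± 0.64 and 0.86 ± 0.60. Their libraries overlapped at all 3 genes in all 3 comparisons, and the sign turned when single libraries were left out, so no direction was resolved. No gene of the genome was called in these comparisons (0%), with 420, 1277 and 840 genes at an unadjusted p under 0.05 and 0, 52 and 111 genes called by DESeq2. Without neurons replicate 2, edgeR called 130 genes in neurons against type I neuroblasts and 387 in neurons against brat RNAi numb RNAi neuroblasts.

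The labels carry a second code (SBa with a number) whose meaning is not stated, and groups that share one could be compared within it. Within code 26 H3K27me3 in brat RNAi over type I neuroblasts had a log2 ratio of -4.22 at btd, -4.19 at Sp1 and -4.44 at CG42657, against -0.30 at nej and -0.19 at CG1354. Within code 68 the brat RNAi numb RNAi over the brat RNAi library gave 3.88 at btd, 3.15 at Sp1 and 2.83 at CG42657. It gave -0.01 at nej and 0.09 at CG1354. Within code 26 neurons over brat RNAi neuroblasts gave 4.78, 4.98 and 5.01 at the 3 genes, against 0.67 at nej and 1.08 at CG1354. Each difference at the 3 genes thus kept its direction within a code. Within code 68 those at Sp1 and CG42657 were smaller than between the group means, and the other 7 were larger. No code was shared by brat RNAi numb RNAi neuroblasts with type I neuroblasts or with neurons.

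H3K4me3 at the starts of btd and Sp1 ran in the opposite direction. At Sp1 it measured 14.4 and 22.8 CPM in neurons, 15.5 and 16.1 CPM in brat RNAi numb RNAi neuroblasts, 90.8 and 67.8 CPM in brat RNAi neuroblasts and 15.2 and 13.5 CPM in type I neuroblasts. At btd it measured 15.99 and 29.6 CPM in neurons, 16.6 and 22.0 CPM in brat RNAi numb RNAi neuroblasts, 69.8 and 54.6 CPM in brat RNAi neuroblasts and 17.0 and 17.8 CPM in type I neuroblasts. At both genes the brat RNAi libraries were the 2 highest of the 8. The highest library of another group was neurons replicate 2, at 29.6 CPM at btd and 22.8 CPM at Sp1. The share of all genes with the brat RNAi libraries highest was not counted.

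The flanking genes had strong H3K4me3 in every library. It was 102 to 224 CPM at nej and 113 to 215 CPM at CG1354, so even in brat RNAi neuroblasts btd and Sp1 stayed below their neighbours. Over the mean of the flanking genes in the same library, Sp1 had a ratio of 0.0654 and 0.138 in neurons, 0.144 and 0.103 in brat RNAi numb RNAi neuroblasts, 0.656 and 0.396 in brat RNAi neuroblasts and 0.101 and 0.0925 in type I neuroblasts. CG42657 had little H3K4me3 anywhere, at 0.888 to 5.78 CPM from 10 to 37 reads per library, and counting error is large at this depth. The lncRNA gene lay between percentiles 0.868 and 16.1 of all genes for this mark. By the same ranks btd stood at percentiles 60.6 and 62.6 in brat RNAi neuroblasts, against 53.6 and 53.6 in type I neuroblasts. Sp1 stood at 62.3 and 67.1 in brat RNAi neuroblasts, against 52.9 and 49.7 in type I neuroblasts. Over all libraries of the other groups btd stood at 38.05 to 56.4 and Sp1 at 34.4 to 53.6. These shifts in rank were much smaller than those of H3K27me3 at the same genes.

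**Figure D4:**
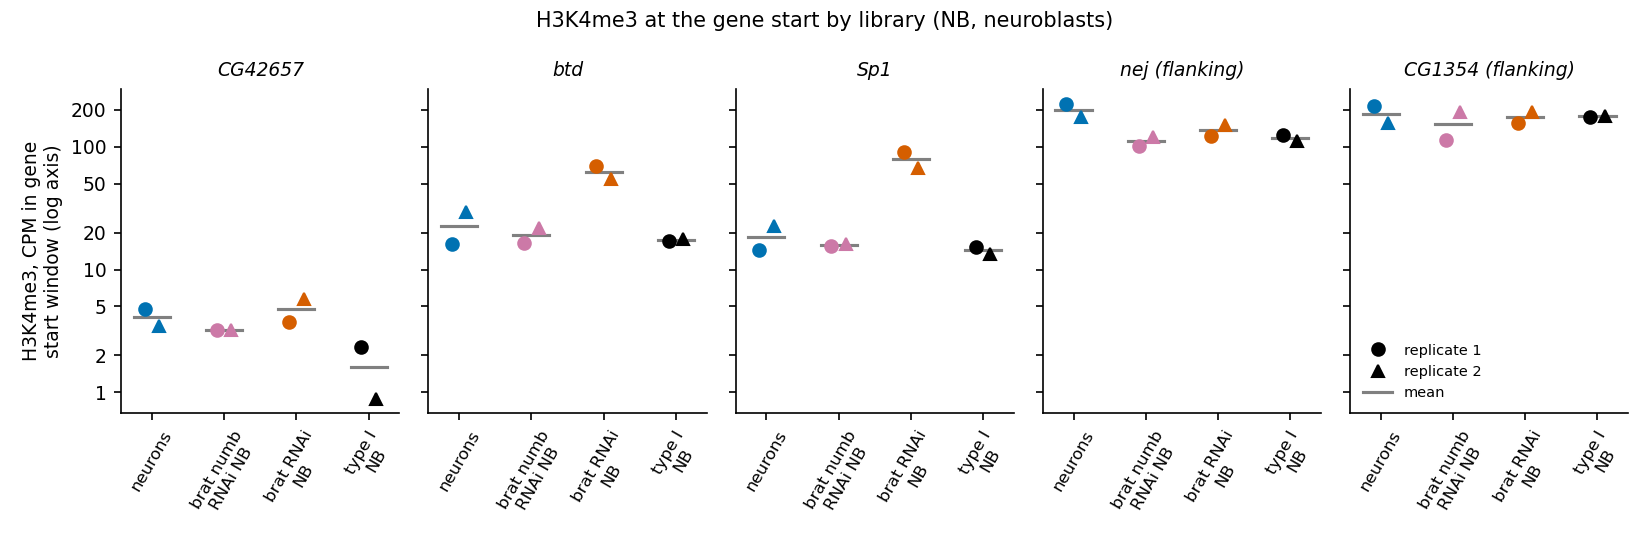
H3K4me3 in CPM in the 501-base start window (log axis) at the same 5 genes and groups, with replicate 1 as circles, replicate 2 as triangles and the mean as a grey line. At btd and Sp1 both brat RNAi libraries, at 54.6 to 90.8 CPM, lie above all others, which are at 13.5 to 29.6 CPM.

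In brat RNAi against type I neuroblasts the H3K4me3 log2 fold change was 2.47 ± 0.74 at Sp1, a 5.53-fold higher level (edgeR adjusted p = 0.16). At btd it was 1.84 ± 0.72, or 3.57-fold (edgeR adjusted p = 0.66), and at CG42657 1.56 ± 0.80 (edgeR adjusted p = 0.80). Sp1 had the 32nd highest log2 fold change of 14185 genes and btd the 257th. No member of the locus was called, where 0.0987% of genes were. DESeq2 gave an adjusted p of 0.00044 at Sp1 and 0.036 at btd, with 0.84% of genes called, and the fit with the second code of the labels (SBa, described above) as a term gave 0.00012 and 0.0044, with 4.03% called. Over 16 alternatives the adjusted p ran from 0.00012 to 1.0 at Sp1 and from 0.0044 to 1.0 at btd, and the log2 fold change stayed between 1.65 and 2.88. The libraries of all 3 genes were separate in this direction, as were those of 21.8% of all genes. Summed markers of hemocytes and of muscle were higher in brat RNAi than in type I neuroblasts, although no marker passed the test. The glial sums were alike in these groups. Hml and srp were low in all 8 libraries, at 2.22 to 9.002 CPM and 3.45 to 11.7 CPM. Summed over Hml and srp, H3K4me3 was 12.4 and 12.9 CPM in brat RNAi neuroblasts, against 6.63 and 9.41 CPM in type I neuroblasts, and both genes had a positive log2 fold change. Summed over Mef2 and Mhc it was 121.9 and 138 CPM in brat RNAi neuroblasts, against 92.5 and 98.6 CPM in type I neuroblasts, and both were positive. Summed over the 3 glial genes, of which 1 was positive, it was 16.3 and 37.3 CPM in brat RNAi neuroblasts, against 17.3 and 37.7 CPM in type I neuroblasts. In neurons the sums were 13.8 and 17.9 CPM for hemocyte, 60.6 and 100.2 CPM for muscle and 29.8 and 49.5 CPM for glial genes, and in brat RNAi numb RNAi neuroblasts they were 19.6 and 13.6 CPM for hemocyte, 83.4 and 146 CPM for muscle and 41.1 and 39.3 CPM for glial genes. The part of such cells in the values at btd and Sp1 was not tested. The flanking genes had log2 fold changes of 0.20 ± 0.66 at nej and -0.04 ± 0.65 at CG1354.

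In brat RNAi numb RNAi against brat RNAi neuroblasts H3K4me3 had a log2 fold change of -2.33 ± 0.73 at Sp1, -1.69 ± 0.72 at btd and -0.53 ± 0.77 at CG42657, with an edgeR adjusted p of 1.0 at each. No gene of the genome was called (0%), 215 had an unadjusted p under 0.05, and DESeq2 called 11 genes or 0.077%, Sp1 among them with an adjusted p of 0.0017. The fit with the code as a term gave an edgeR adjusted p of 0.011 at Sp1, with 26.9% of genes called. Sp1 ranked 42nd from the lowest and btd 87th. All 3 genes had separate libraries, as did 5.1% of all genes in this direction.

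In neurons against brat RNAi neuroblasts the H3K4me3 log2 fold change was -2.09 ± 0.73 at Sp1 (edgeR adjusted p = 0.13), -1.45 ± 0.72 at btd (edgeR adjusted p = 0.63) and -0.18 ± 0.77 at CG42657. None was called, against 2.12% of all genes. That share rests on 301 genes, which became 11 without brat RNAi replicate 1 and 574 without brat RNAi numb RNAi replicate 1. DESeq2 gave an adjusted p of 0.00050 at Sp1 and 0.039 at btd, with 4.28% of genes called, and the fit with the code as a term gave 0.00060 and 0.013, with 12.6% called. The libraries were separate at btd and Sp1 and overlapped at CG42657, and 11.8% of all genes were separate in this direction.

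Among the 3 groups with high H3K27me3 the H3K4me3 differences at btd and Sp1 were small. In brat RNAi numb RNAi against type I neuroblasts the log2 fold change was 0.15 ± 0.71 at btd and 0.14 ± 0.70 at Sp1, with 0% of genes called, 463 at an unadjusted p under 0.05 and 6 called by DESeq2. In neurons against type I neuroblasts it was 0.39 ± 0.71 and 0.37 ± 0.70, with 0.451% of genes called. Those 64 genes became 2 without type I replicate 2 and 400 without brat RNAi numb RNAi replicate 1. In neurons against brat RNAi numb RNAi neuroblasts it was 0.24 ± 0.71 and 0.23 ± 0.70, with 2.21% of genes called, or 313 genes, which became 12 without neurons replicate 1 and 552 without neurons replicate 2. At CG42657 the log2 fold change was 1.38 ± 0.79 in neurons and 1.03 ± 0.79 in brat RNAi numb RNAi neuroblasts, each against type I neuroblasts. Its libraries were separate in both, as were 23.6% of all genes in neurons and 21.1% in brat RNAi numb RNAi neuroblasts, and separate in neurons over brat RNAi numb RNAi neuroblasts, as were 9.38%. With the code as a term CG42657 passed in neurons over type I neuroblasts (edgeR adjusted p = 0.0090), with 32.5% of genes called.

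Within code 27 the brat RNAi over the type I library had an H3K4me3 log2 ratio of 2.58 at Sp1 and 2.04 at btd. Within code 68 the brat RNAi numb RNAi over the brat RNAi library gave -2.07 at Sp1 and -1.31 at btd, and within code 27 neurons over brat RNAi gave -2.66 and -2.13. At Sp1 and btd each of these kept the direction seen between group means. At nej and CG1354 the ratios, in the same order of comparisons, were -0.04 and -0.18, -0.32 and 0.01, and 0.89 and 0.47. Neurons over type I neuroblasts gave values near 0 within code 27, at -0.08 for Sp1 and -0.09 for btd, and 0.76 and 0.73 within code 51.

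**Figure D5:**
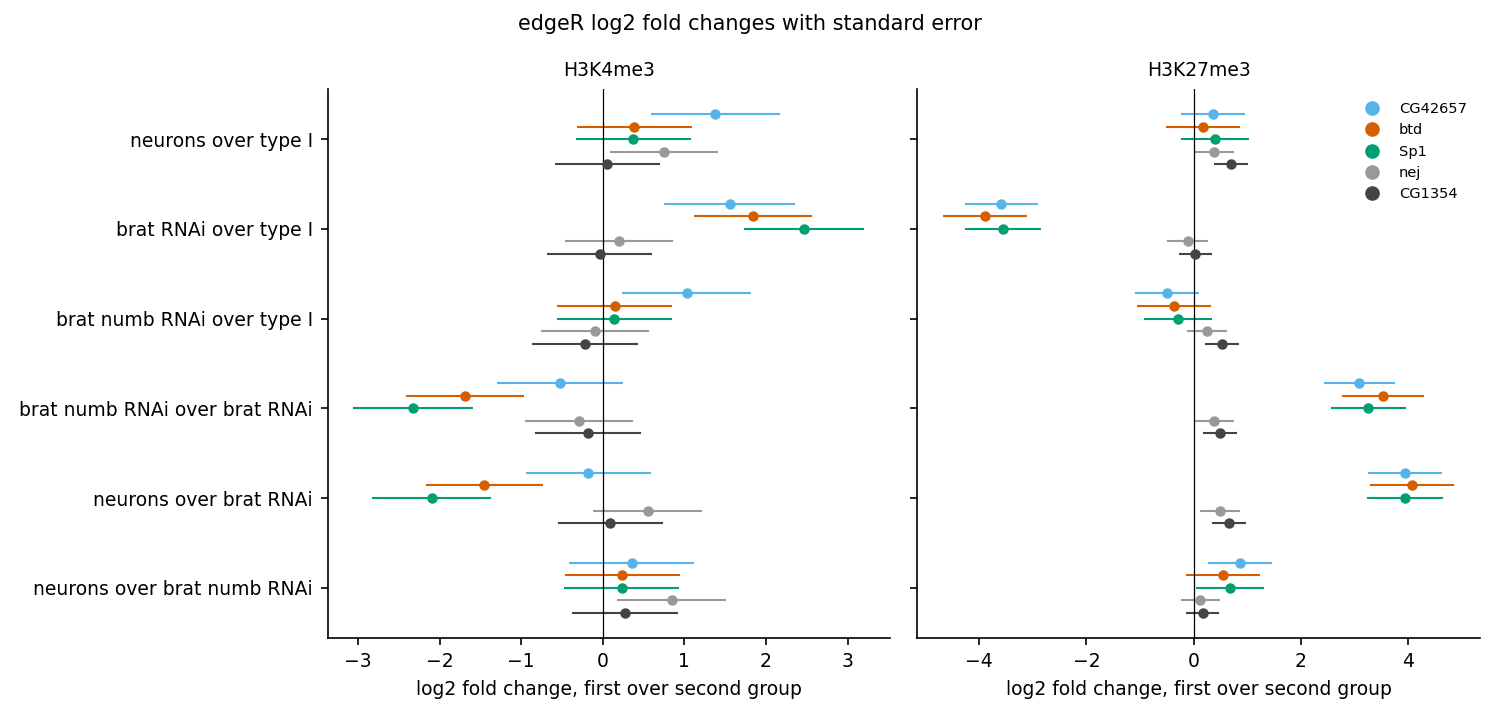
Log2 fold changes (edgeR, first over second group, bars 1 SE) of H3K4me3 and H3K27me3 at CG42657, btd, Sp1, nej and CG1354 in the 6 comparisons. In the 3 comparisons that involve brat RNAi neuroblasts H3K27me3 at the locus lies at 3.09 or more from 0, while H3K27me3 at nej and CG1354 lies at -0.11 to 0.69 in all 6. H3K4me3 at nej and CG1354 lies at -0.29 to 0.84.

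To see which genes had profiles like btd and Sp1, log2 CPM over the 8 libraries of a mark was centred per gene, and the root mean square (RMS) difference was taken between genes. For H3K27me3 the genes closest to btd were CR43498 (RMS difference 0.16 on the log2 scale), Sp1 (0.23) and CG17083 (0.29). Those closest to Sp1 were CG17083 (0.16), CG42657 (0.17) and CG4434 (0.23), with btd next. CG17083 and CG4434 lie on chromosome 3R, 165 bp apart. CG4434 ends 914 bp from the gene model of pointed (pnt), an ETS factor used by type II neuroblasts. This is the end of the pnt model away from its start. The model begins at 3R:19116826, and the start window lies at 3R:19171384 to 19171884. CG17083 had 153 and 32.7 CPM of H3K27me3 in neurons, 54.4 and 68.2 CPM in brat RNAi numb RNAi neuroblasts, 6.41 and 9.34 CPM in brat RNAi neuroblasts and 101 and 65.8 CPM in type I neuroblasts.

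For H3K4me3 Sp1 lay between CG32280 and BBS1 in closeness to btd (RMS differences 0.29, 0.22 and 0.31), and btd was the closest to Sp1, followed by CG5646 (0.33) and CG32280 (0.34). CG32280 had 20.5 and 26.9 CPM in neurons, 27.02 and 28.4 CPM in brat RNAi numb RNAi neuroblasts, 90.7 and 60.1 CPM in brat RNAi neuroblasts and 22.6 and 21.6 CPM in type I neuroblasts. For this mark CG42657 ranked 1197th of 14185 genes by closeness to btd and 554th by closeness to Sp1, with RMS differences of 0.77 and 0.89. The 8 libraries of a mark share their depth and scaling across genes, so these distances are descriptions.

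Genes of related roles were examined as lists. Of 8 other genes of the Sp and KLF zinc finger family none was called for H3K27me3 in brat RNAi against type I neuroblasts, and 3 of 8 had a positive log2 fold change, with a median of -0.16. Of all 14182 genes tested none was called and 6944 were positive, with a median of -0.01. Of 12 genes of type II neuroblasts and intermediate progenitors none was called and 2 had a positive value, with a median of -0.47. Of 9 head patterning genes none was called and 1 had a positive value (median -0.58). Of 12 ventral appendage genes none was called and 7 had positive values (median 0.11). For H3K4me3 in the same comparison, in which 14 of 14185 genes or 0.0987% were called, 0 of the 8, 0 of the 12 and 0 of the 12 appendage genes were called, and 1 of the 9 head genes, orthodenticle (oc), decreased. It had 3.65 and 4.82 CPM in brat RNAi neuroblasts, against 49.99 and 31.5 CPM in type I neuroblasts (edgeR adjusted p = 0.049).

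Among the members of these lists 3, named after their values were seen, are given as examples of lower H3K27me3 in brat RNAi than in type I neuroblasts. Dll, which acts downstream of btd and Sp1 in appendages, had 1783 and 372 CPM in neurons, 583 and 714 CPM in brat RNAi numb RNAi neuroblasts, 95.7 and 103 CPM in brat RNAi neuroblasts and 1054 and 671 CPM in type I neuroblasts. Its H3K4me3 was 22.3 and 18.9 CPM in neurons, 12.4 and 14.02 CPM in brat RNAi numb RNAi neuroblasts, 86.5 and 50.8 CPM in brat RNAi neuroblasts and 9.53 and 13.9 CPM in type I neuroblasts. For both marks the 2 brat RNAi libraries at Dll thus lay apart from the 6 others, as at btd and Sp1, and the share of all genes that did so was not counted. The nuclear receptor gene tailless (tll) had 10.98 and 9.55 CPM of H3K27me3 in brat RNAi neuroblasts, against 121 and 64.2 CPM in type I neuroblasts. For pnt the values were 409 and 444 CPM in brat RNAi neuroblasts, against 2070 and 1199 CPM in type I neuroblasts.

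None of the 3 passed the test, with log2 fold changes of -3.12 ± 0.67 at Dll, -3.17 ± 0.70 at tll and -1.94 ± 0.55 at pnt (edgeR adjusted p of 0.62, 0.62 and 0.68). They differed from the locus in how far the density reached in brat RNAi neuroblasts. It stood at percentiles 33.9 and 18.4 of all genes at Dll, 38.7 and 14.01 at tll and 47.7 and 47.8 at pnt, whereas btd, Sp1 and CG42657 all stood at 6.07 or below. At the outermost start of pnt, H3K4me3 was 7.91 and 8.35 CPM in brat RNAi neuroblasts and 4.70 and 7.55 CPM in type I neuroblasts. The log2 fold change there was 0.40 ± 0.84, beside 1.84 at btd, 2.47 at Sp1 and 2.55 at Dll. Any other start within pnt was not measured, so the value covers the outermost start only.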

How the data were processed

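The authors deposited raw read counts per gene, 1 table per library, with no normalization. By the coordinates in the deposited tables, H3K4me3 reads were counted in 501-base windows and H3K27me3 reads over gene models (median 2029 bases). The build dm3, bedtools 2.25.0, Bowtie2 2.2.4 and deepTools 2.5.0.1 are named in the submitters' processing notes. Counting settings, duplicate handling and how the 2 libraries of a group were obtained are not given in the sources used here, so the spread behind the p-values may be technical. The 14 input samples were not used here, and no input was subtracted.

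The fit used edgeR 4.0.16 under R 4.3.3 (quasi-likelihood, robust, TMM, default low-count filter by group), all 8 libraries of a mark and group means only, with 4 residual degrees of freedom. P-values were adjusted by Benjamini-Hochberg over 14185 (H3K4me3) or 14182 (H3K27me3) genes, threshold 0.05. The SE is the absolute log2 fold change over the square root of F. DESeq2 1.42.0 and the other alternatives are described under the dependence on processing. Scripts were tested on simulated data. Of 59 list entries 58 were matched.

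The members, lists and tests were chosen with earlier results of these data known. Named were the 3 genes, nej, CG1354, genes within 100 kb, the 3 closest genes in profile to btd and to Sp1, and list members past the threshold; exceptions are stated. Promoter and protein sequences were not analysed here.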

Additional observations from a re-analysis of the deposited data

How the results depend on the processing

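Values below are log2 fold changes, and causes were not tested unless stated. Over the alternatives tried (library totals, DESeq2 size factors, no low-count filter, DESeq2, the groups fitted alone, a replicate block, the SBa code as a term for H3K4me3, each library left out, and the 6 neuroblast libraries only), 38 of 540 values at the 3 genes came to pass the threshold, 24 changed sign and 478 did neither, of which 6 DESeq2 values had no adjusted p. The code could not be fitted for H3K27me3, where it leaves 0 residual degrees of freedom.

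H3K27me3 in brat RNAi over type I neuroblasts passed the threshold with DESeq2 (btd -3.86, Sp1 -3.52, CG42657 -3.56), with the groups alone (-3.90, -3.56, -3.59) and with 6 neuroblast libraries (-3.90, -3.56, -3.58). Leaving out 1 library gave -4.28 to -3.42 at btd, -3.91 to -3.18 at Sp1 and -4.05 to -2.93 at CG42657. Without neurons replicate 1 the edgeR adjusted p was 0.019 at btd and 0.018 at Sp1, and without neurons replicate 2 it was 0.0060, 0.0050 and 0.027 at btd, Sp1 and CG42657. In brat RNAi numb RNAi over brat RNAi, 6 neuroblast libraries gave 3.53 at btd and 3.26 at Sp1 and DESeq2 3.25 at Sp1, with 3.17 to 3.82 at btd and 3.03 to 3.68 at Sp1 when 1 library was left out. In neurons over brat RNAi, DESeq2 gave 4.07, 3.94 and 3.95 at btd, Sp1 and CG42657, and leaving out 1 library gave 2.43 to 4.83, 2.49 to 4.67 and 2.70 to 4.62. It passed without neurons replicate 2 (edgeR adjusted p 0.00088 at btd).

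H3K27me3 signs that turned when 1 library was left out were those of neurons over type I (-1.46 to 0.94 at btd, -1.06 to 1.11 at Sp1, -0.88 to 1.08 at CG42657; without neurons replicate 1, or for btd and CG42657 also type I replicate 2), of brat RNAi numb RNAi over type I (-0.74 to 0.18, -0.61 to 0.14, -0.96 to 0.21; without type I replicate 1) and of neurons over brat RNAi numb RNAi (-1.16 to 1.30, -0.83 to 1.41, -0.44 to 1.53; without neurons replicate 1).

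For H3K4me3 the code as a term gave calls in brat RNAi over type I (btd 2.23, Sp1 2.78), in brat RNAi numb RNAi over brat RNAi (Sp1 -2.07), in neurons over brat RNAi (btd -1.90, Sp1 -2.43) and in neurons over type I (CG42657 1.44), on 1 residual degree of freedom. DESeq2 gave calls in the same comparisons but the last (1.77 and 2.39, -2.47, -1.55 and -2.18). Signs turned in brat RNAi numb RNAi over type I with DESeq2 size factors (btd -0.051, Sp1 -0.078) and DESeq2 (-0.049, -0.075), and with the code as a term in neurons over brat RNAi (CG42657 0.52) and over brat RNAi numb RNAi (btd -0.59, Sp1 -0.36). Leaving out 1 library gave -0.18 to 0.90 at btd and -0.047 to 0.80 at Sp1 in neurons over type I, -0.071 to 0.33 at btd in brat RNAi numb RNAi over type I, -0.48 to 0.086 at CG42657 in neurons over brat RNAi, and -0.50 to 0.57 at btd and -0.40 to 0.45 at Sp1 in neurons over brat RNAi numb RNAi.

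Genes called in brat RNAi against type I numbered 0 for H3K27me3 in the fit of all libraries, 41 with DESeq2, 24 with the groups alone, 13 with 6 neuroblast libraries and 12 or 14 without a neuron library. In the other H3K27me3 comparisons leaving out 1 library gave 0 to 130 genes in neurons over type I, 0 to 11 in brat RNAi numb RNAi over brat RNAi, 0 to 186 in neurons over brat RNAi and 0 to 387 in neurons over brat RNAi numb RNAi. For H3K4me3 they numbered 14 in brat RNAi against type I, against 45 with library totals, 120 with DESeq2, 572 with the code as a term, and 0 to 53 with 1 library left out. Library totals gave 472 H3K4me3 calls in neurons over type I, 637 in neurons over brat RNAi and 823 in neurons over brat RNAi numb RNAi, against 64, 301 and 313. Library totals moved the H3K4me3 median of all genes from 0.24 to 0.61 in neurons over type I and from 0.27 to 0.83 in brat RNAi numb RNAi over type I. Without division by length btd stood at mean H3K27me3 percentile 24.2 and Sp1 at 84.1 in brat RNAi neuroblasts.

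The replicate numbers are only shared numbers. Deviations of same-numbered libraries correlated at 0.445 to 0.74 for H3K4me3 and 0.57 to 0.619 for H3K27me3 among neurons, brat RNAi and type I, and at -0.616 to -0.314 and -0.415 to -0.365 with brat RNAi numb RNAi. With a replicate block the H3K27me3 values in brat RNAi over type I were -3.81 at btd, -3.45 at Sp1 and -3.41 at CG42657 (edgeR adjusted p 0.48, 0.55 and 0.27), with 1 gene called, and the block as numbered changed no call at the 3 genes. With the brat RNAi numb RNAi numbers exchanged, chosen after seeing the data, calls at the 3 genes did change: for H3K4me3, 2 passed in brat RNAi over type I (980 genes called in all) and 1 in neurons over brat RNAi (1080), and for H3K27me3, 0 in brat RNAi over type I (25), 1 in brat RNAi numb RNAi over brat RNAi (1577) and 2 in neurons over brat RNAi (2675).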
